A study of Mus musculus with 6 samples.

Results

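Solute carriers are membrane proteins that move ions, metals and small metabolites across the plasma membrane and the membranes of organelles. The genes described here are the expressed members of this superfamily in bone marrow-derived macrophages (BMMs): protein-coding mouse genes whose symbol begins with Slc and a digit and which had at least 20 reads in at least 3 of 6 RNA-seq libraries. The 7 transport genes Slc2a1, Slc7a1, Slc7a2, Slc7a11, Slc11a1, Slc11a2 and Slc40a1 were set aside by name although they passed. This left 201 genes of 41 families, out of 371 protein-coding Slc genes and 47729 genes in the count tables. Another 163 Slc genes stayed under the count threshold, 73 of them with 0 reads in every library. The genes were thus selected on their read counts in these libraries, so that being expressed is not a result.

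The libraries came from cultured BMMs of C57BL/6J mice, 3 from WT and 3 from Aif1-/- animals, the latter lacking AIF1 in every cell of the body. Marrow was taken from the femur and tibia of male mice at 8 weeks, and its cells were grown into macrophages before SV40 large T antigen was introduced to immortalize them. Both genotypes carried the viral antigen and were kept in the same α-MEM with 10% FBS, 120 ng/ml CSF-1, antibiotics and glutamine, and were collected at passages 3 to 5. The libraries of a genotype came from 3 independent animals. The AIF1-deficient mice had been backcrossed to C57BL/6J.

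Carriers differ in what drives them. Some couple a substrate to sodium or proton gradients, others exchange a substrate on one side for another on the opposite side, and others let it run down its own gradient. Macrophages are known to use them to feed glycolysis and export lactate, to take up cystine and glutamine, to draw metals and heme from digested red cells, and to empty lysosomes of amino acids and nucleosides. Several families need a partner chain to reach the membrane, such as the CD98 heavy chain Slc3a2 for light chains of the Slc7 family.

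Each library held 17707986 to 29314253 reads assigned to genes, and the 201 Slc genes took 1.08% to 1.12% of them. Between 25.5% and 40.4% of a library's reads fell in no gene, with both extremes in WT. The targeted gene Aif1 had 220, 157 and 239 reads in the WT libraries and 4, 4 and 1 in the Aif1-/- libraries. Of 8 macrophage markers all were expressed and 6 were higher in Aif1-/- BMMs, with a summed level of 80926 to 97063 normalized counts in WT and 118616 to 120748 in Aif1-/- libraries. Of 6 megakaryocyte and platelet markers 4 were tested, and Pf4, Ppbp and Treml1 were higher. The fourth, Itga2b, was not called, at 12.7 ± 6.64 (SD) in WT and 9.12 ± 1.30 in Aif1-/- libraries, and Gp1bb was at 0 throughout. The list summed to 932 to 1049 in WT and 2000.5 to 2094 in Aif1-/- libraries. Most of that sum was Pf4, at 892 ± 80.8 in WT and 1745 ± 48.0 in Aif1-/- libraries. None of the other marker lists had a call. The 5 neutrophil markers summed to 0 to 8.04 in WT and 2.63 to 9.32 in Aif1-/- libraries, with 4 at 0 throughout (Ly6g, Mpo, Elane and S100a9). The 4 lymphocyte markers summed to 7.04 to 9.33 in WT and 3.95 to 11.99 in Aif1-/- libraries, with 3 at 0. The 4 mast cell markers summed to 0 to 0.844 in WT and 0 to 1.33 in Aif1-/- libraries, with 3 at 0 (Cpa3, Fcer1a and Mcpt4). The 5 red cell markers summed to 2.53 to 18.1 in WT and 13.2 to 18.6 in Aif1-/- libraries, with 2 at 0. The 4 fibroblast markers summed to 0 to 6.79 in WT and 0 to 2.66 in Aif1-/- libraries, with Dcn at 0. None of these 5 lists had enough reads to be tested. Of 3 dendritic cell markers, summing to 41.4 to 53.5 in WT and 53.3 to 100.1 in Aif1-/- libraries, 2 were tested and 0 called, and of 3 osteoclast markers, summing to 10.1 to 36.5 in WT and 5.33 to 32.9 in Aif1-/- libraries, 1 was tested and 0 were called, with Calcr at 0. The part of the macrophage and megakaryocyte lists in the results that follow was not tested.

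Normalized counts are reads scaled to a common library size. A gene was called changed where the adjusted p of edgeR's quasi-likelihood test, over all 17406 genes tested, was under 0.05. All log2 fold changes are Aif1-/- against WT.

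Of the 201 Slc genes, 65 changed (32.3%), 21 higher and 44 lower in Aif1-/- BMMs. Among all genes tested 18.6% were called (8.04% higher and 10.5% lower), and among protein-coding genes that met the same count threshold 24.4% (10.4% higher and 14.0% lower). A call with a log2 fold change of at least 1 in size was made for 20 of the 201, 2 higher and 18 lower. It was made for 1098 of all 17406 genes tested (6.31%), 403 higher and 695 lower. Among protein-coding genes over the threshold it was made for 846 of 11518 (7.35%), 296 higher and 550 lower. The median log2 fold change of the 201 was -0.08, against -0.0035 over all genes tested. In 97 of the 201 the WT and Aif1-/- libraries did not overlap, 33 higher and 64 lower, which included all 65 called genes. The same held for 35.7% of all genes tested and 43.1% of protein-coding genes over the threshold. Leaving out an Aif1-/- library lowered the 65 to 40 (replicate 1), 42 (replicate 2) or 39 (replicate 3). Where fits that kept a call are counted, the count is out of 13, the reported one and 12 alternatives. A further fit, limited to genes with no gene on the other strand, tested 39 of the 65 and called all of them, and is not among the 13. In bulk RNA, fewer cells of a type and less RNA per cell cannot be told apart.

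Some genes reached the threshold through one genotype alone and so had to differ. These were Slc5a5, Slc12a2, Slc7a14, Slc16a14 and Slc6a12 through WT and Slc18b1 through Aif1-/-. Among the 190 Slc genes with at least 20 reads in 2 or more libraries of each genotype, 57 were called, 19 higher and 38 lower (30%), and the changes of at least 1 log2 unit numbered 12, all lower. The share over all genes under that narrower rule was not determined, so the 30% has no matched background. At the edge of the threshold, Slc7a7 was just inside with 20, 17 and 11 reads in WT and 50, 20 and 27 in Aif1-/- libraries. Slc25a47 and Slc25a2 were also just inside, where the third highest library held 21 reads. Slc4a11, Slc24a1 and Slc16a8 were just outside at 18, 19 and 19 reads. In all, 76 of the 201 overlap an annotated gene on the other strand, 26 of them called, and their counts could include reads of the other gene.

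**Figure D1:**
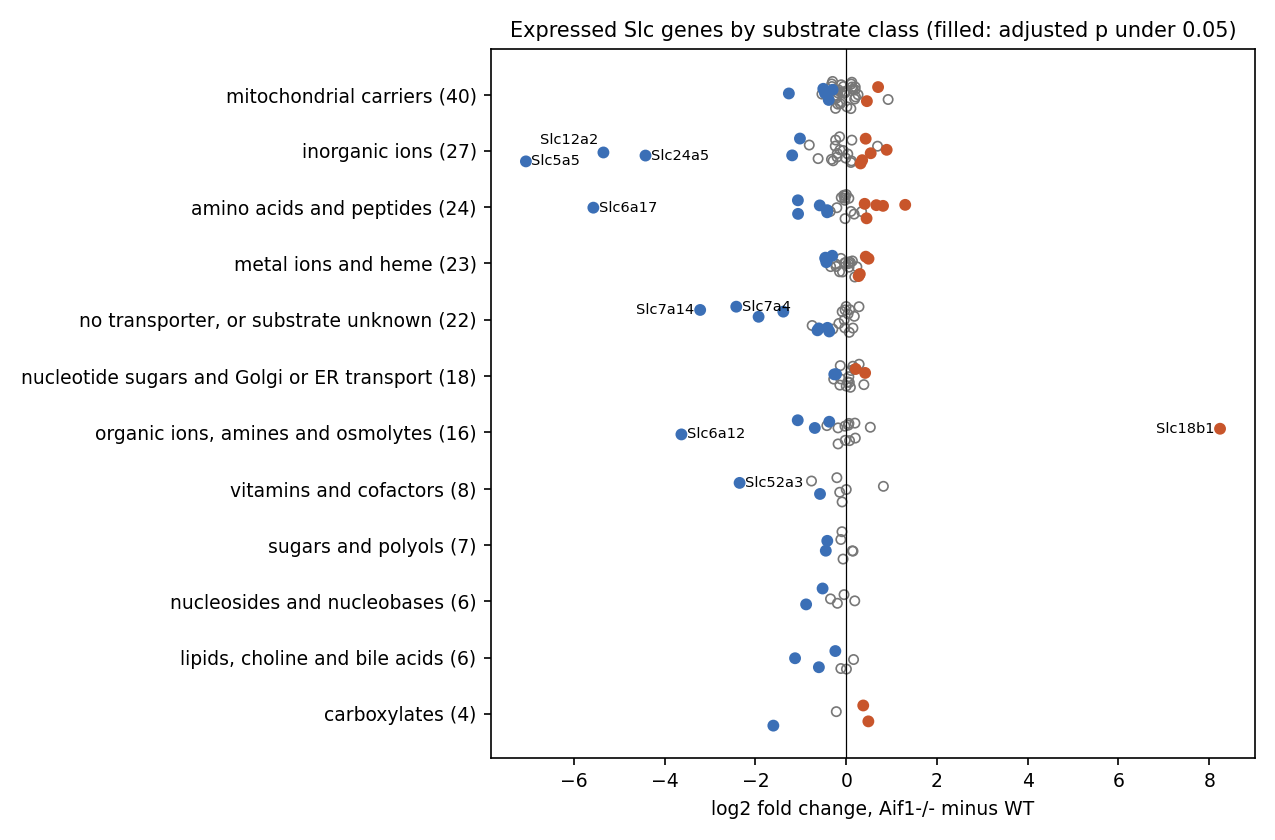
Log2 fold change (x axis, Aif1-/- against WT) of each of the 201 Slc genes, placed by substrate class with the number of genes in parentheses; filled points passed an adjusted p of 0.05 (red higher, blue lower) and open points did not. Most points sit close to 0 and the far left of the plot holds genes of several classes, while Slc18b1 alone sits at the far right.

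Abundance made little difference to the share called. Split into 3 groups of 67 genes by abundance, 29.9% of the least, 32.8% of the middle and 34.3% of the most abundant Slc genes were called, beside 25.6%, 20.8% and 27.1% of protein-coding genes in the same ranges. Of the 12 changes of at least 1 log2 unit among the 190 genes counted in both genotypes, 8 were in the least abundant group, 4 in the middle and 0 in the most abundant one.

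Levels between genes are compared as TPM, reads per kilobase of exon scaled to the same total in every library. The median Slc gene stood at 13.7 TPM and the range ran from 0.283 to 237. The taurine carrier Slc6a6 led at 233 ± 7.05 in WT and 239.99 ± 4.38 in Aif1-/- BMMs (SD, n = 3). The mitochondrial ADP/ATP translocase Slc25a5, the lysosomal heme carrier Slc48a1 and the CD98 heavy chain Slc3a2 came next, and none of these 4 was called. The 15 most abundant genes made up 38.4% of the summed level of all 201. Of these 15, only Slc7a8 (higher) and the creatine carrier Slc6a8 (lower) were called. The summed level was 5507 ± 231 in WT and 5296 ± 64.8 in Aif1-/- BMMs.

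**Figure D2:**
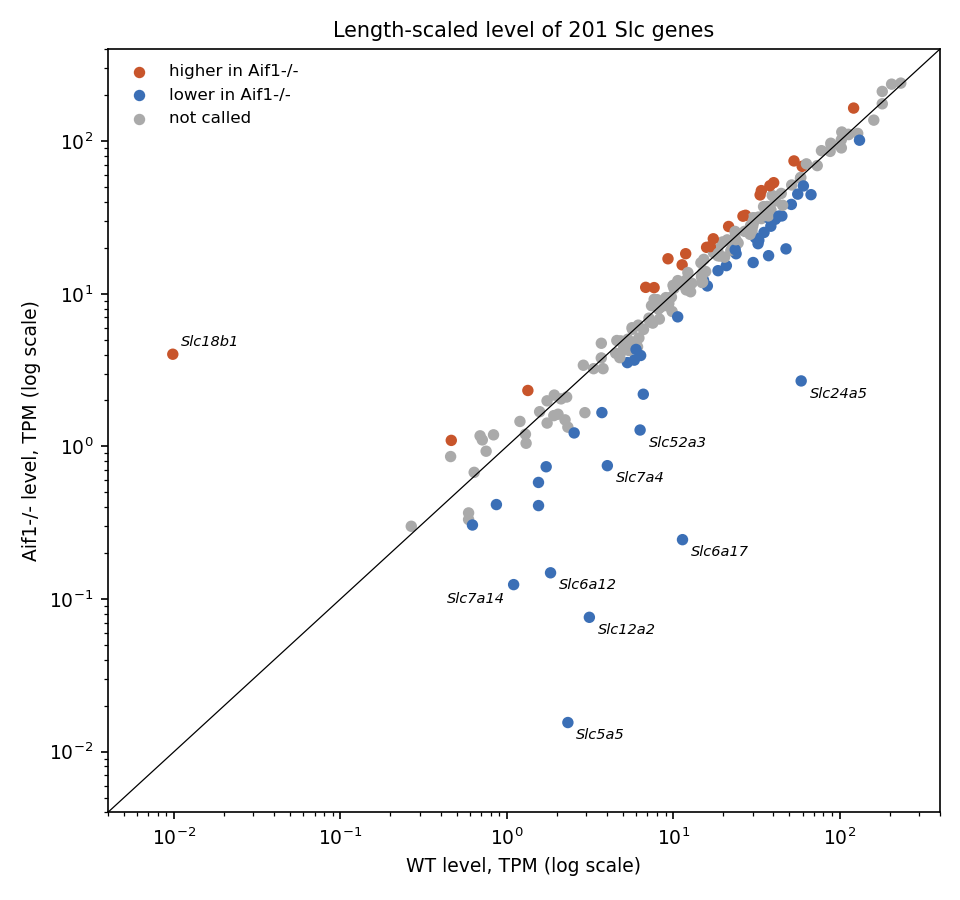
Length-scaled level of each of the 201 Slc genes in Aif1-/- BMMs (y axis) against WT (x axis), means of 3 libraries in TPM on log scales, with the line of equal level. The abundant genes lie near the line and the 9 labelled genes, with log2 fold changes of at least 2 in size, lie far from it, Slc18b1 above and the others below.

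Slc18b1 was close to absent in WT and present without AIF1. This gene of a vesicular polyamine carrier (chr10:23796986-23827968 in GRCm38) had 0, 0.848 and 0 normalized counts in the WT libraries and 113, 148 and 122 in the Aif1-/- libraries. It was thus read once in WT and 332 times in Aif1-/- libraries, a log2 ratio of 8.72 with a 95% interval of 6.23 to 14.03 that covers counting error only. The adjusted p was 1.35e-06, for a gene that reached the count threshold through Aif1-/- libraries alone and so had to differ. Its relative Slc18a1, the vesicular monoamine carrier VMAT1, went the other way, from 45.7 ± 9.36 to 21.9 ± 2.22 normalized counts (-1.07 ± 0.29 (SE), adjusted p = 0.029). Slc18a1 had few reads, 37, 52 and 66 in WT and 22, 17 and 18 in Aif1-/- libraries. It was called in 7 of 13 fits and overlaps a gene on the other strand. The more abundant vesicular monoamine carrier Slc18a2 was not called, at 184 ± 36.9 in WT and 194 ± 21.9 in Aif1-/- libraries (0.07 ± 0.18 (SE), adjusted p = 0.845). The genes on either side of Slc18b1, Rps12 and Vnn3, were not called and nearly silent respectively.

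Other genes were far lower in Aif1-/- BMMs. Of those described next, Slc5a5, Slc12a2, Slc6a12 and Slc7a14 reached the count threshold through WT alone and so had to differ. Slc5a5, the sodium-iodide symporter of the thyroid (chr8:70882889-70892757), had 66.4, 48.4 and 86.97 normalized counts in WT and 0, 1.33 and 0 in Aif1-/- libraries. The raw totals were 226 reads in WT and 1 in Aif1-/-, a log2 ratio of -7.47 with a 95% counting interval of -12.8 to -4.98, and the adjusted p was 3.36e-05. Slc6a17, a neutral amino acid carrier of synaptic vesicles (chr3:107467543-107518018), had 1049.7, 1143 and 1207 normalized counts in the WT libraries and 16.8, 30.6 and 26.3 in the Aif1-/- libraries. The WT libraries were all far above the Aif1-/- libraries, with a log2 fold change of -5.57 ± 0.17 (SE), adjusted p = 1.7e-08.

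Slc12a2, the sodium-potassium-chloride cotransporter NKCC1 (chr18:57878678-57946821), had 364, 312 and 315 normalized counts in WT and 7.07, 7.99 and 9.22 in Aif1-/- libraries. The 3 WT libraries lay close together and far above the others (-5.35 ± 0.21 (SE), adjusted p = 6.7e-08). Slc24a5, a potassium-dependent sodium-calcium exchanger of pigment granules (chr2:125068124-125088677), had 1409, 1218 and 1353 normalized counts in WT and 68.01, 65.3 and 50.03 in Aif1-/- libraries (-4.42 ± 0.13 (SE), adjusted p = 1.39e-08). It overlaps Myef2 on the other strand, which fell as well, from 1747 ± 308 to 1005 ± 47.4 normalized counts (log2 fold change -0.80, adjusted p = 0.000828). The share of reads that could pass between the overlapping genes was not tested.

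Smaller totals were seen for 4 others. Slc6a12, the betaine and GABA carrier, had 57.3, 54.3 and 49.8 normalized counts in WT and 2.65, 9.32 and 1.32 in Aif1-/- libraries (-3.63 ± 0.49 (SE), adjusted p = 0.000453). The next gene on chromosome 6, Iqsec3, lies 7.16 kb away on the opposite strand and fell from 68.3 ± 18.8 to 0.294 ± 0.51 normalized counts. Slc52a3, a riboflavin carrier, had 134, 152 and 231 normalized counts in WT and 22.96, 38.6 and 42.1 in Aif1-/- libraries (-2.35 ± 0.29 (SE), adjusted p = 0.000265). Slc7a4 and Slc7a14, both of the cationic amino acid branch of Slc7 by sequence and without a settled substrate, fell as well. For Slc7a4 the libraries read 155, 158 and 173 normalized counts in WT and 27.4, 31.96 and 31.6 in Aif1-/- libraries (-2.42 ± 0.19 (SE), adjusted p = 9.5e-06). For Slc7a14 they read 106, 111 and 94.6 normalized counts in WT and 2.65, 15.98 and 17.1 in Aif1-/- libraries (-3.22 ± 0.44 (SE), adjusted p = 0.000477), with 1 Aif1-/- library well under the other two.

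**Figure D3:**
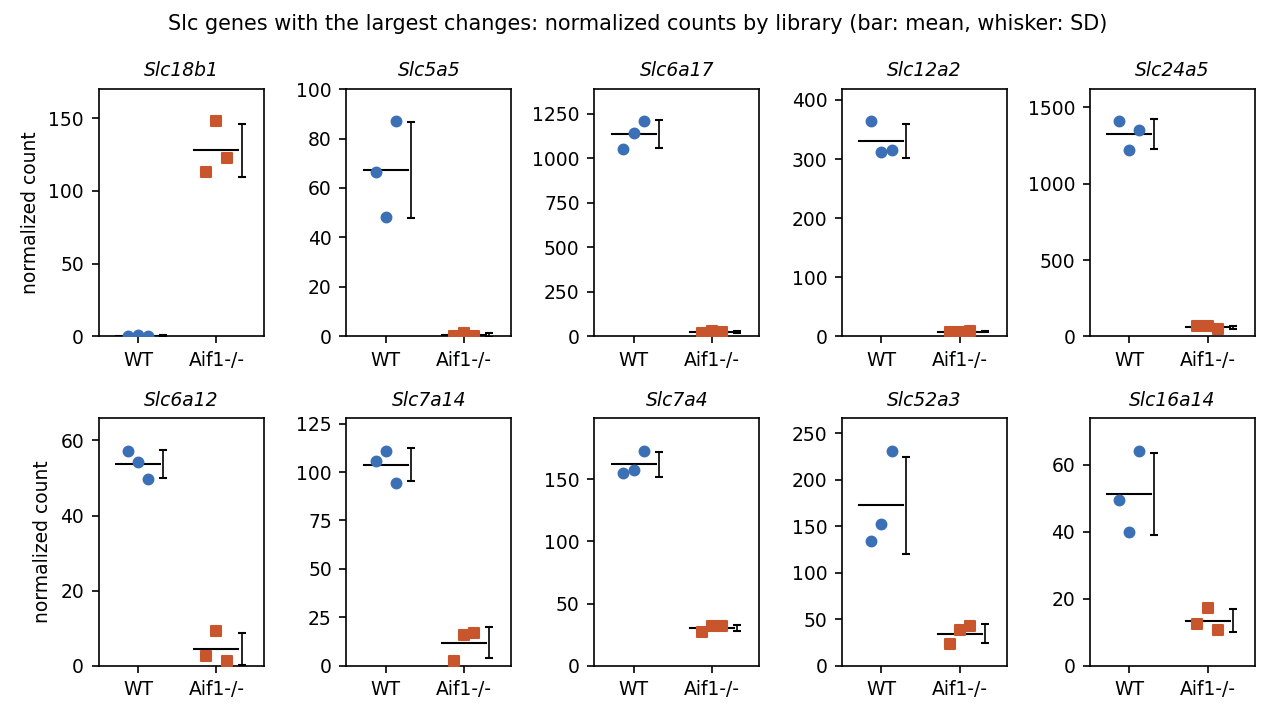
Normalized counts (y axis, from 0 and on its own scale in each panel) in the 3 WT (circles) and 3 Aif1-/- (squares) libraries for 10 Slc genes with large changes; the horizontal bar is the mean and the whisker the SD. In each panel the genotypes do not overlap, and only Slc18b1 is higher in Aif1-/- BMMs. The genes were chosen for their large changes, so this separation is not a separate result. Genes that reached the count threshold through WT alone (such as Slc5a5, Slc12a2, Slc6a12 and Slc7a14) or through Aif1-/- alone (Slc18b1) had to differ.

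Amino acid and peptide carriers were the class of 24 genes with 11 changes (45.8%), 5 higher and 6 lower, and a median log2 fold change of -0.03. Over all genes tested 18.6% were called, and among protein-coding genes over the threshold 24.4%. These shares stand beside every class that follows. The heavy chain Slc3a2 had 5885, 6116 and 6518 normalized counts in the WT libraries and 6014, 5944 and 6195 in the Aif1-/- libraries and was not called (-0.03 ± 0.06 (SE), adjusted p = 0.834). Its light chains moved apart. Slc7a8 (LAT2), an exchanger of neutral amino acids, rose from 5897 ± 364 to 8046 ± 85.5 normalized counts (0.45 ± 0.07 (SE), adjusted p = 0.000842), with all 3 Aif1-/- libraries above all 3 WT ones. Slc7a5 (LAT1), the leucine exchanger that loads activated and dividing cells, fell, with 1517, 1356 and 1819.7 normalized counts in WT and 1146, 1128 and 1234 in Aif1-/- libraries (-0.42 ± 0.11 (SE), adjusted p = 0.0186).

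Slc7a6 and Slc7a7 (y+LAT2 and y+LAT1), which exchange cationic for neutral amino acids, were both higher. For Slc7a6 the log2 fold change was 0.41 ± 0.08 (SE), adjusted p = 0.00511, while Slc7a7, with at most 50 reads in any library, had 1.30 ± 0.38 (SE), adjusted p = 0.0389. As length-scaled levels Slc7a8 was the most abundant of these 4 light chains and took 66.5% ± 1.18 in WT and 74.5% ± 1.08 in Aif1-/- BMMs of their sum. Slc7a5 took 23.7% ± 1.66 in WT and 14.6% ± 0.602 in Aif1-/- BMMs of it. Slc7a15 was also higher (0.66 ± 0.17 (SE), adjusted p = 0.0192). Of the 8 expressed Slc7 genes kept here 7 were called (87.5%), 4 higher and 3 lower. Among all genes tested the share was 18.6%, and among protein-coding genes over the threshold 24.4%. Slc7a14, counted here, reached the threshold through WT alone and so had to differ, and Slc7a7 had 20 reads in only 1 WT library. Slc7a1, Slc7a2 and Slc7a11, set aside by name, are not counted. The Slc7 gene not called, Slc7a6os, shares only its locus name with the family.

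Of the glutamine carriers, Slc38a7 and Slc38a1 fell. Slc38a7, which releases glutamine from lysosomes, had 1472, 1434 and 1610.2 normalized counts in the WT libraries and 754, 653 and 749 in the Aif1-/- libraries (-1.07 ± 0.09 (SE), adjusted p = 1.19e-05). The lowest WT library lay well above the highest Aif1-/- one. The plasma membrane glutamine carrier Slc38a1 fell from 1781 ± 157 to 1188 ± 46.7 (-0.58 ± 0.08 (SE), adjusted p = 0.00061). Its abundant relative Slc38a2 did not pass the test (0.00 ± 0.07 (SE), adjusted p = 0.988), nor did the lysosomal arginine sensor Slc38a9 (0.06 ± 0.07 (SE), adjusted p = 0.684). The glycine carrier Slc6a9 (-1.06 ± 0.22 (SE), adjusted p = 0.00619) and Slc15a4, the lysosomal peptide and histidine carrier of endosomal Toll-like receptor signalling (-0.42 ± 0.09 (SE), adjusted p = 0.00945), were lower. Slc36a2, a proton-coupled carrier of glycine and proline, was higher at a low level (0.81 ± 0.25 (SE), adjusted p = 0.0458). Of the 11 changes 6 held in all 13 fits, and Slc7a7 was called in 6 of 13, Slc36a2 in 7 of 13 and Slc7a5 in 9 of 13. Without Aif1-/- replicate 1 or replicate 3 the 11 became 6.

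The class of monocarboxylate carriers changed in 3 of 4 genes (75%), 2 higher and 1 lower, with a median log2 fold change of 0.08. It holds only part of the Slc16 family, whose 10 expressed genes were placed in several classes and had 4 calls, 2 in each direction. Slc16a1 (MCT1), which moves lactate and pyruvate either way with a proton, had 237, 259.6 and 364 normalized counts in the WT libraries and 82.1, 104 and 98.8 in the Aif1-/- libraries. All 3 Aif1-/- libraries were under the lowest WT one (-1.61 ± 0.20 (SE), adjusted p = 0.000219). Slc16a3 (MCT4), known as the lactate exporter of glycolytic cells, had 1656, 1606 and 2001 normalized counts in WT and 2379, 2451 and 2554 in Aif1-/- libraries (0.49 ± 0.09 (SE), adjusted p = 0.00344). Slc16a6 (MCT7), a ketone body carrier, was higher as well (0.37 ± 0.07 (SE), adjusted p = 0.00338), and Slc16a7 (MCT2) did not pass (-0.22 ± 0.09 (SE), adjusted p = 0.116). Of the summed length-scaled level of the 4, Slc16a3 made up 50.6% ± 2.13 in WT and 58.2% ± 0.754 in Aif1-/- BMMs, while Slc16a1 made up 9.88% ± 1.49 in WT and 2.70% ± 0.305 in Aif1-/- BMMs. The sum itself was 67.005 ± 2.92 in WT and 81.5 ± 2.40 in Aif1-/- BMMs. The 3 calls held in all 13 fits. Slc16a6 overlaps a gene on the other strand and was not in the fit without such genes.

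**Figure D4:**
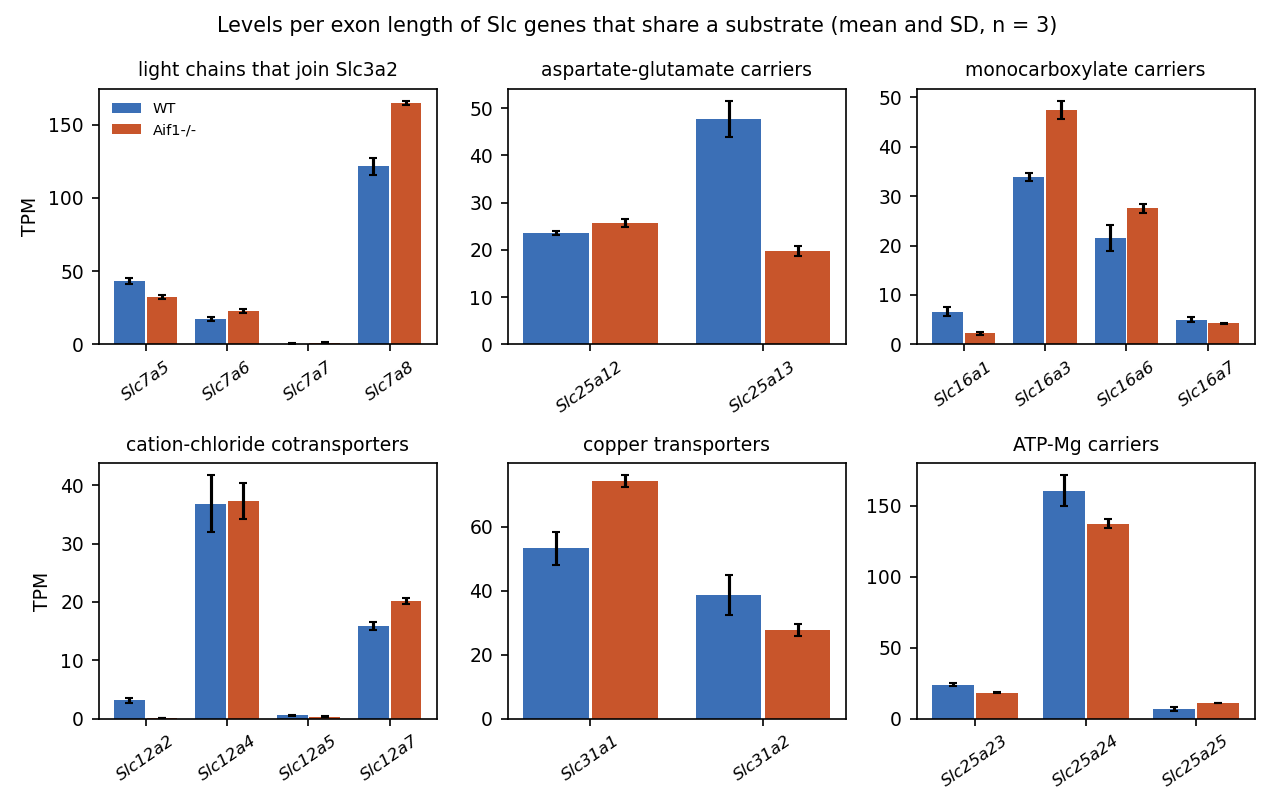
Length-scaled levels (y axis, TPM, from 0) of Slc genes that share a substrate or partner, in WT (blue) and Aif1-/- (red) BMMs; bars are means of 3 libraries and whiskers the SD. Slc16a1 and Slc25a13 are lower in Aif1-/- BMMs beside relatives that were higher or not called, and Slc31a1 and Slc31a2 move in opposite directions.

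Carriers of inorganic ions changed in 10 of 27 genes (37.0%), 5 in each direction, with a median log2 fold change of -0.15. All 5 changes of at least 1 log2 unit were falls, in Slc5a5, Slc12a2 and Slc24a5 (above) and in the bicarbonate exchangers Slc4a3 (-1.19 ± 0.28 (SE), adjusted p = 0.0141) and Slc4a8 (-1.02 ± 0.29 (SE), adjusted p = 0.032). Of these, Slc5a5 and Slc12a2 reached the count threshold through WT alone and so had to differ. Slc9a7, a sodium-proton exchanger of the trans-Golgi network, had 343, 375 and 305 normalized counts in WT and 629.7, 649 and 619 in Aif1-/- libraries and rose by 0.89 ± 0.10 (SE), adjusted p = 0.000169. The endosomal exchanger Slc9a9 was also higher (0.32 ± 0.07 (SE), adjusted p = 0.0128), whereas Slc9a8 did not pass (0.12 ± 0.10 (SE), adjusted p = 0.463).

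Slc8a1, the sodium-calcium exchanger NCX1, had 1427, 1474 and 1259.8 normalized counts in the WT libraries and 2019, 2014 and 2012 in the Aif1-/- libraries (0.54 ± 0.08 (SE), adjusted p = 0.000599), with the Aif1-/- libraries almost level. Among the chloride cotransporters, the potassium-chloride member Slc12a7 (KCC4) was higher (0.35 ± 0.07 (SE), adjusted p = 0.00706). The related Slc12a4 did not pass (0.03 ± 0.08 (SE), adjusted p = 0.85). By length-scaled level Slc12a2 took 5.57% ± 0.807 in WT and 0.131% ± 0.01 in Aif1-/- BMMs of the summed level of Slc12a2, Slc12a4, Slc12a5 and Slc12a7, and that sum was 56.4 ± 5.80 and 57.9 ± 3.68. The anion carrier Slc26a11 was higher (0.43 ± 0.09 (SE), adjusted p = 0.00567), and the phosphate carrier Slc20a1, the most abundant of the class, was not called (-0.07 ± 0.07 (SE), adjusted p = 0.614).

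Metal and heme carriers changed in 8 of 23 genes (34.8%), 4 in each direction, none by 1 log2 unit, with a median of -0.01. Both copper genes were called, in opposite directions. Slc31a1 (CTR1), the high-affinity copper importer, had 2359.8, 2014 and 2244 normalized counts in the WT libraries and 3166, 3129.7 and 3003 in the Aif1-/- libraries (0.49 ± 0.07 (SE), adjusted p = 0.00104). Slc31a2, its endosomal and lysosomal relative, had 804, 764 and 699 normalized counts in WT and 509.6, 558 and 582 in Aif1-/- libraries (-0.46 ± 0.09 (SE), adjusted p = 0.00654). Neither gene's genotypes overlapped. The share of Slc31a1 in their summed length-scaled level was 58.1% ± 2.39 in WT and 72.8% ± 1.84 in Aif1-/- BMMs.

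Zinc leaves the cytosol through the Slc30 family and enters it through the Slc39 family. Slc30a1 (ZnT1), the exporter of the plasma membrane, fell from 1062 ± 89.4 to 783 ± 105 (-0.44 ± 0.11 (SE), adjusted p = 0.0191). Slc30a4, of endosomal vesicles, fell too (-0.46 ± 0.07 (SE), adjusted p = 0.00103), and Slc30a5, of the secretory pathway, was higher (0.27 ± 0.07 (SE), adjusted p = 0.0162). Of 11 Slc39 genes, 2 were called: Slc39a6 was lower (-0.31 ± 0.08 (SE), adjusted p = 0.0234) and Slc39a14, which also carries iron, was higher (0.30 ± 0.07 (SE), adjusted p = 0.0102). The magnesium carrier Slc41a2 was higher (0.43 ± 0.07 (SE), adjusted p = 0.00151). Slc48a1, which brings heme out of the phagolysosome, had 4803, 4376 and 5311 normalized counts in the WT libraries and 5639, 5701 and 5711 in the Aif1-/- libraries and missed the threshold (0.23 ± 0.08 (SE), adjusted p = 0.0628). Of the 8 calls, 3 held in all 13 fits (Slc30a4, Slc31a1 and Slc41a2, each with a gene on the other strand and so not in the fit without such genes), and Slc30a5 and Slc39a6 were called in 9 of 13 each. The 8 became 5 without WT replicate 1 or Aif1-/- replicate 1 and 4 without Aif1-/- replicate 3.

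Slc39a7, a zinc carrier of the endoplasmic reticulum 1.14 Mb from Aif1, and Slc37a1, 3.82 Mb away, are the only Slc genes kept here within 10 Mb of the deleted locus on chromosome 17. Neither was called (log2 fold changes of -0.22 ± 0.20, adjusted p = 0.532 and 0.18 ± 0.18, adjusted p = 0.577).

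Mitochondrial carriers, the Slc25 family, changed in 7 of 40 genes (17.5%), 2 higher and 5 lower, with a median of -0.12. That share was no higher than the 18.6% of all genes tested and the 24.4% of protein-coding genes over the threshold. Slc25a13 (citrin) exports aspartate for glutamate in the malate-aspartate shuttle. It had 1778, 1681 and 1797 normalized counts in the WT libraries and 705, 774 and 711 in the Aif1-/- libraries, with every WT library far above the others (-1.26 ± 0.07 (SE), adjusted p = 1.24e-06). Its paralogue Slc25a12 (aralar), with a protein 76.8% identical, had 1609, 1554 and 1889 normalized counts in WT and 1804, 1903 and 1799 in Aif1-/- libraries and was not called (0.12 ± 0.08 (SE), adjusted p = 0.394). Whether reads passed between the pair was not tested. The share of Slc25a13 in their summed length-scaled level was 66.8% ± 1.81 in WT and 43.4% ± 0.506 in Aif1-/- BMMs. That sum was 71.2 ± 3.89 in WT and 45.3 ± 1.83 in Aif1-/- BMMs.

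The calcium-dependent ATP-Mg carriers split. Slc25a25 was higher, with 436, 572 and 549.7 normalized counts in WT and 867, 852 and 818 in Aif1-/- libraries (0.70 ± 0.11 (SE), adjusted p = 0.00121), and Slc25a23 was lower (-0.39 ± 0.11 (SE), adjusted p = 0.0282), while Slc25a24, by level the main one of the 3, did not pass (-0.22 ± 0.07 (SE), adjusted p = 0.0707). Slc25a20, which brings acylcarnitines to fatty acid oxidation, was higher (0.46 ± 0.10 (SE), adjusted p = 0.0113). The carriers of glutamate (Slc25a22, -0.51 ± 0.12, adjusted p = 0.0115) and of branched-chain amino acids (Slc25a44, -0.47 ± 0.08, adjusted p = 0.00159) were lower. The translocases Slc25a4 (-0.19 ± 0.08, adjusted p = 0.136) and Slc25a5 (0.20 ± 0.12, adjusted p = 0.353) did not pass. Their proteins are 89.6% identical, the closest pair among all Slc genes compared, and reads may pass between them. Slc25a47 and Slc25a2, at the count threshold, were not called. Of the 7 calls 3 held in all 13 fits, and the number called was 13 without WT replicate 3, 3 without Aif1-/- replicate 1, 4 without either of the other two Aif1-/- libraries and 17 when the unassigned read share entered as a covariate.

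Organic ions, amines and osmolytes changed in 5 of 16 genes (31.25%), 1 higher and 4 lower, with a median of -0.02. Slc18b1 reached the count threshold through Aif1-/- alone and Slc6a12 through WT alone, so both had to differ. Beside Slc18b1, Slc18a1 and Slc6a12, the urate carrier Slc2a9 fell from 316 ± 51.5 to 196 ± 20.9 normalized counts (-0.69 ± 0.15 (SE), adjusted p = 0.00905). The creatine carrier Slc6a8 had 6328, 6187 and 7531 normalized counts in the WT libraries and 4996, 5143 and 5337 in the Aif1-/- libraries (-0.37 ± 0.08 (SE), adjusted p = 0.0101). All Aif1-/- libraries were under the lowest WT library. The taurine carrier Slc6a6 was not called (0.05 ± 0.07 (SE), adjusted p = 0.734), nor were the carnitine carriers Slc22a4 (-0.02 ± 0.13, adjusted p = 0.944), Slc22a5 (0.19 ± 0.13, adjusted p = 0.408) and Slc22a21 (-0.03 ± 0.19, adjusted p = 0.946). The proteins of Slc22a21 and Slc22a5 are 83.5% and those of Slc22a4 and Slc22a5 75.2% identical. Reads may pass between these genes, which was not tested. Of the 5 calls 3 were left after leaving out any one of the Aif1-/- libraries.

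In 4 small classes every call was a fall, and their median log2 fold changes were -0.27 (nucleosides), -0.18 (lipids), -0.09 (sugars) and -0.17 (vitamins). The shares called were 33.3% (nucleosides), 50% (lipids), 28.6% (sugars) and 25% (vitamins), each from few genes. Among 6 nucleoside and nucleobase carriers 2 were lower: Slc28a2, a sodium-driven importer of purine nucleosides, had 1188, 1453 and 999 normalized counts in WT and 642, 674 and 658 in Aif1-/- libraries (-0.88 ± 0.13 (SE), adjusted p = 0.000644), and the purine base carrier Slc43a3 had 1386, 1538 and 1281 normalized counts in WT and 972, 963 and 995 in Aif1-/- libraries (-0.52 ± 0.08 (SE), adjusted p = 0.00137). The lysosomal nucleoside carrier Slc29a3 was not called (-0.05 ± 0.07 (SE), adjusted p = 0.735). Among 6 lipid and choline carriers 3 were lower. The fatty acid transport proteins Slc27a3 (-1.13 ± 0.25 (SE), adjusted p = 0.0091) and Slc27a4 (-0.60 ± 0.10 (SE), adjusted p = 0.0019) and the choline carrier Slc44a1 (-0.24 ± 0.06 (SE), adjusted p = 0.0205) made up these, while the most abundant, Slc27a1, was not called (0.16 ± 0.09 (SE), adjusted p = 0.294).

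Among 7 sugar and polyol carriers 2 were lower, the myo-inositol carrier Slc5a3 (-0.45 ± 0.09 (SE), adjusted p = 0.00746) and the lysosomal hexose carrier Slc2a6 (-0.42 ± 0.11 (SE), adjusted p = 0.0244). None of these was called without Aif1-/- replicate 1, and 1 was without replicate 2 or replicate 3. Among 8 vitamin carriers 2 were lower, the riboflavin carrier Slc52a3 and the folate carrier Slc19a1 (-0.58 ± 0.16 (SE), adjusted p = 0.0324), the latter lost without Aif1-/- replicate 1 or replicate 3. By length-scaled level Slc52a3 was 6.33 ± 1.27 in WT and 1.28 ± 0.381 in Aif1-/- BMMs, beside 5.34 ± 0.293 in WT and 5.04 ± 0.484 in Aif1-/- BMMs for its relative Slc52a2, which was not called. The share of Slc52a3 in the sum of both was 53.9% ± 4.05 in WT and 19.99% ± 4.07 in Aif1-/- BMMs. The vitamin C carrier Slc23a2, the main gene of the class, had 4493 ± 162 in WT and 4495 ± 111 in Aif1-/- BMMs, and its log2 fold change was 0.00 ± 0.06 (SE).

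Carriers of nucleotide sugars and other Golgi and endoplasmic reticulum substrates changed in 4 of 18 genes (22.2%), 2 in each direction, with a median of 0.06. That share lay between the 18.6% of all genes tested and the 24.4% of protein-coding genes over the threshold. Slc35c2 (0.42 ± 0.10 (SE), adjusted p = 0.0141) and the sugar phosphate exchanger Slc37a2 (0.21 ± 0.06 (SE), adjusted p = 0.0437) were higher. Slc35b4, a carrier of UDP-sugars (-0.26 ± 0.06 (SE), adjusted p = 0.0166), and Slc37a3 (-0.22 ± 0.07 (SE), adjusted p = 0.0452) were lower. None of the 4 was called in all 13 fits, and 0 were called after leaving out WT replicate 1 or any one of the Aif1-/- libraries.

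A last set of 22 genes has no settled substrate or codes for no carrier. It had 8 changes (36.4%), all falls, and a median of -0.13. Slc7a14, Slc7a4 and Slc16a14 (-1.93 ± 0.34 (SE), adjusted p = 0.00247) led these, followed by Slc22a23 (-1.39 ± 0.24 (SE), adjusted p = 0.00251) and the Slc35-type genes Slc35g1, Slc35e4, Slc35f5 and Slc35e3, with log2 fold changes of -0.63, -0.60, -0.41 and -0.37. Slc7a14 and Slc16a14 reached the count threshold through WT alone and so had to differ. The scaffold protein gene Slc9a3r1 (NHERF1), the most abundant of the set, was not called (-0.03 ± 0.12 (SE), adjusted p = 0.906). The 8 became 4 without Aif1-/- replicate 2 and 5 without replicate 3.

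Within families, paralogues were compared pair by pair. Of 1285 pairs of expressed members of the same family, 45 were called in the same direction and 38 in opposite directions. The pairs called oppositely that were closest in protein sequence were Slc25a23 and Slc25a25 (59.9% identical), Slc7a5 and Slc7a8 (49.9%) and Slc7a5 and Slc7a6 (49.7%).

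Promoter sequence from RefSeq (GRCm38.p6, 250 bases before to 50 after each start) was at hand for 157 of the 201 genes. Motif letters were sought on both strands. GTCACGTG, the core of the CLEAR element bound by the lysosomal regulators of the MiT/TFE group, was in 10 of the 157 (6.37%), in 4.92% of expressed protein-coding genes and in 2.55% of all genes with a promoter. Among called Slc genes it was in 4 of 33 that fell (Slc16a1, Slc25a13, Slc31a2 and Slc37a3) and in 1 of 17 that rose (Slc12a7). The shorter E-box CACGTG, which the CLEAR core contains, was in 17.2% of the Slc genes and 11.9% of expressed protein-coding genes. For the antioxidant response core TGACNNNGC these shares were 22.9% and 17.2%. They were 63.7% and 63.4% for TGCNCNC, a loose form of the metal response core that was in 53.6% of all genes with a promoter. They were 2.55% and 2.79% for the C/EBP-ATF element TGATGNAA, and 3.18% and 3.89% for the PU.1 core GAGGAAGT. They were 8.28% and 8.81% for the interferon response core GAAANNGAA and 5.1% and 6.34% for the NRF1 site GCGCATGC. A match is a description of these letters only.

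The stretches upstream of the start are shown for the 4 called genes whose CLEAR core lies there in full, with that core in capitals, and for Slc18b1, the gene with the largest rise, which lacks it. Each runs 5′ to 3′ on the gene's own strand and ends at the base before the annotated start. For Slc12a7 the RefSeq start used lies 30.6 kb inside the annotated gene, and for the others it is at the gene's start or close to it. The core begins 202 bases before the start in Slc16a1 (chr3:104638444-104638663, plus strand), 127 in Slc25a13 (chr6:6217174-6217323, minus strand), 40 in Slc12a7 (chr13:73763547-73763696, plus strand) and 15 in Slc37a3 (chr6:39377708-39377857, minus strand). The Slc18b1 stretch is chr10:23796836-23796985, plus strand.
Slc16a1: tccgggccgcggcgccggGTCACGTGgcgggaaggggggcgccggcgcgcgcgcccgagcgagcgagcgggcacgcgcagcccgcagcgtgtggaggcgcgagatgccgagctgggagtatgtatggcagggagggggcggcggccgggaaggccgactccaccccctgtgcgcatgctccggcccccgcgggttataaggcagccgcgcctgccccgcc
Slc25a13: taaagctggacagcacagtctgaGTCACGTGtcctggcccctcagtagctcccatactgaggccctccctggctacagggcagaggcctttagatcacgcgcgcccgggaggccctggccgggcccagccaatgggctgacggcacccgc
Slc12a7: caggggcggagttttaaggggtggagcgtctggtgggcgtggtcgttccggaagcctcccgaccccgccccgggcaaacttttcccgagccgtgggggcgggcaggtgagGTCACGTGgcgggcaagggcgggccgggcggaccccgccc
Slc37a3: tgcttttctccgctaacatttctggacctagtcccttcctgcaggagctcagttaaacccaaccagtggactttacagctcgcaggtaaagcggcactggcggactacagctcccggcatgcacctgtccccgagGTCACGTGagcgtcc
Slc18b1: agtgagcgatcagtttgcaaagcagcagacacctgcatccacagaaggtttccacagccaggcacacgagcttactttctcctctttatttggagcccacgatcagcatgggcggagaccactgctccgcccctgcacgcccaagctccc
The Slc16a1 stretch holds 35 CpG sites in 220 bases and the Slc18b1 stretch 6 in 150 bases. Over the whole 300-base windows the median was 20 CpG sites in the 157 Slc genes, 21 in expressed protein-coding genes and 7 in all genes.

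Genes that work beside the Slc carriers were taken from 9 lists. Over all genes tested 18.6% were called, and among protein-coding genes over the threshold 24.4%. By list the share was 26.7% (otherwise named carriers), 40.7% (ABC transporters), 25% (partner chains), 30% (ion pumps) and 66.7% (metal response). It was 50% (ATF4 response), 19.0% (mTORC1 sensing), 40% (carbonic anhydrases) and 38.5% (WNK and SPAK). Of 30 tested carriers that belong to solute carrier families under other names, 8 changed, 5 higher and 3 lower, with a median log2 fold change of -0.09. The organic anion carrier Slco2b1 rose (1.56 ± 0.14 (SE), adjusted p = 2.41e-05), as did the mitochondrial uncoupling protein Ucp2, from 6813 ± 769 to 14134 ± 74.97 normalized counts (1.05 ± 0.08 (SE), adjusted p = 9.88e-06). Slco4a1 fell (-0.77 ± 0.08 (SE), adjusted p = 0.000106). Of 27 ABC transporters 11 changed, 3 higher and 8 lower, with a median of -0.19. The cholesterol exporter Abcg1 fell from 3403 ± 345 to 1112 ± 27.8 (-1.61 ± 0.08 (SE), adjusted p = 5.51e-07), and the peroxisomal Abcd2 (2.71 ± 0.14 (SE), adjusted p = 5.51e-07) and Abcg3 (4.78 ± 0.31 (SE), adjusted p = 2.55e-06) rose.

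Of 4 tested genes listed as partner chains 1 changed, and their median was -0.02. It was Gprc5c (-1.69 ± 0.21 (SE), adjusted p = 0.000237), an orphan G protein-coupled receptor. The others, Bsg (0.05 ± 0.08, adjusted p = 0.748), Emb (-0.09 ± 0.07, adjusted p = 0.45) and Arl6ip5 (0.15 ± 0.08, adjusted p = 0.218), were not called. Of 10 ion pumps, with a median of 0.16, 3 were higher, among them the copper pump Atp7a (0.32 ± 0.07 (SE), adjusted p = 0.00774) and Atp13a3 (0.53 ± 0.07 (SE), adjusted p = 0.000299). Of 3 tested metal response genes, with a median of -0.79, 2 changed, the metal-binding Mt1 and Mt2, whose transcription is known to be induced by zinc and copper. Both were lower, and Mt2 had 308 ± 67.1 in WT and 30.05 ± 6.84 in Aif1-/- BMMs (-3.36 ± 0.23 (SE), adjusted p = 3.43e-06). Of 22 genes of the ATF4 and amino acid starvation response, with a median of -0.23, 11 changed, 1 higher and 10 lower, including the serine synthesis enzyme Phgdh (-1.40 ± 0.13 (SE), adjusted p = 3.29e-05) and the stress factor Ddit3 (-1.19 ± 0.08 (SE), adjusted p = 2.22e-06).

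Of 21 genes of amino acid sensing by mTORC1 4 changed, 2 in each direction, with a median of -0.02. The Rag GTPase Rragd fell from 2707 ± 154 to 963 ± 56.4 (-1.49 ± 0.08 (SE), adjusted p = 5.09e-07), and the arginine sensor Castor1 rose (1.88 ± 0.31 (SE), adjusted p = 0.00187). Of 5 carbonic anhydrases, with a median of -0.58, 2 changed, Car13 (-1.11 ± 0.10 (SE), adjusted p = 2.92e-05) and Car5b (-0.58 ± 0.11 (SE), adjusted p = 0.00451), both lower. Of 13 genes around the WNK and SPAK kinases and volume-regulated channels 5 changed, 3 higher and 2 lower, with a median of 0.02. The kinase Sgk1 rose (1.04 ± 0.08 (SE), adjusted p = 5.46e-06), and the channel subunits Lrrc8b (-0.61 ± 0.07 (SE), adjusted p = 9.16e-05) and Lrrc8c (-0.97 ± 0.07 (SE), adjusted p = 5.68e-06) fell.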

How the data were processed

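RNA from 6 BMM cultures was depleted of ribosomal RNA and sequenced from stranded libraries made from 200 ng of RNA. The authors trimmed reads (Trim Galore 0.5), aligned them to GRCm38 (TopHat2 2.0.13) and counted them per gene (HTSeq 0.6.1p1), as stated in the methods and in the submitters' processing notes. What they deposited were raw, unscaled counts of 47729 genes. Rows for unassigned reads, 25.5% to 40.4% (no gene) and 4.55% to 7.15% (ambiguous) of reads, were left out of library sizes and tests.

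The counts were fitted by genotype with edgeR 4.0.16 (R 4.3.3), quasi-likelihood test, TMM scaling and the default expression filter, with Benjamini-Hochberg adjustment over 17406 genes. Fold changes come from this fit, and ± after a log2 value is its SE, after a count or level the SD of 3 libraries. Gene positions, lengths and biotypes come from GENCODE M21, which matched 47310 genes, and protein identity from global alignment of the longest coding sequences, translated. With 3 against 3 libraries an exact two-sided permutation test cannot go below 0.1, so none was used. The reported fit was also run on simulated counts whose dispersions came from these data. That run cannot show how reliable the calls in the real libraries are. The genes, classes and lists were chosen with earlier results of these data known, and Slc4a1ap was moved to the class without a carrier after its counts were seen. Shares within groups of related carriers were chosen after the values were seen. Named genes are up to 3 called per class by adjusted p, the 8 largest rises and falls, the most abundant per class, those at the count threshold, in 1 genotype only, within 10 Mb of Aif1 and the closest protein pairs, and from each companion list up to 3 called. Others are named to complete a family or class. Alternatives were DESeq2 1.42.0, RLE scaling, no or a stricter filter, a replicate block, the unassigned share as a covariate, genes without a gene on the other strand and leaving out each library. A few genes are not reported here by name. Intervals cover counting error only. Sampling depth limits calls among genes of few reads.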

Additional observations from a re-analysis of the deposited data

How the results depend on the processing

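Of the 65 called Slc genes 31 kept their call and direction in the reported fit and 12 others, not counting the fit restricted by strand, and none of the 65 took the opposite sign in any fit that tested it. DESeq2 kept 60, RLE scaling 65, no filter 61, a filter of 50 reads all 62 it tested, the covariate for reads outside genes 65 and leaving out a library 39 to 64. Restricting the test to genes with no gene on the other strand kept 39 of 39, so that the lower counts there (39 called, 11 higher and 28 lower of 125) come from fewer genes tested. Under it the classes had 6 amino acid, 6 inorganic ion, 3 metal, 4 mitochondrial, 5 unassigned, 2 Golgi and 1 vitamin genes called, and the companion lists 4 otherwise named carriers, 7 ABC transporters, 1 metallothionein and 6 ATF4 genes. With the covariate the counts were 17 mitochondrial genes, 15 otherwise named carriers, 2 partner chains, 5 ion pumps and 9 mTORC1 genes, and with DESeq2 1 metallothionein. The cause was not tested.

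Leaving out 1 library in turn gave 39 to 81 called Slc genes, 11 to 29 higher and 26 to 52 lower. By class this was 6 to 12 for amino acids, 4 to 9 for metals, 3 to 13 for mitochondrial carriers, 4 to 11 without a settled substrate, 0 to 4 for Golgi carriers, 3 to 5 for organic ions, 0 to 2 for sugars and 1 to 3 for vitamins. For the companion lists it was 5 to 12 otherwise named carriers (5 without any one Aif1-/- library), 1 to 5 ion pumps and 2 to 7 mTORC1 genes (the highest without WT replicate 3, the lowest without Aif1-/- replicate 1 or replicate 2), and 1 to 2 metallothioneins (1 without any one Aif1-/- library).

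Same-numbered libraries deviated from their genotype means with correlations of 0.06, -0.08 and -0.09, and differently numbered ones with -0.07 to 0.13. With 3 libraries per genotype, these values cannot show whether replicate numbers paired the samples. A replicate block kept 57 of the 65 and left 2 Golgi and 1 vitamin gene called. Depth limits calls among genes of few reads, where the standard errors were largest.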
